A study of Mus musculus with 2 samples.

Results

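The unfolded protein response (UPR) is the set of signals by which a cell adjusts the folding capacity of the endoplasmic reticulum (ER). The genes described here are its sensors and the chaperones of the ER, and the measurement is where the RNA helicase UPF1 lay on their transcripts. The 10 genes were Atf6, Ern1 and Eif2ak3, which encode the sensors ATF6, IRE1 and PERK; Xbp1, whose mRNA IRE1 cuts; Tbl2, an ER membrane protein reported to bind PERK; and the chaperones and folding enzymes Calr, Canx, Hspa5, Hsp90b1 and Pdia3. The clusters counted for them are the deposited UPF1 clusters that overlap the RefSeq locus of one of these genes by at least 1 base, on the strand of the gene. This gave 102 clusters of the 123349 in the data set, and every one of the 10 genes had at least 2. No cluster lay on the opposite strand of any of the 10 loci, although the strand of Atf6 was itself taken from its clusters.

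When unfolded proteins build up, the chaperone BiP leaves the lumenal parts of the sensors. PERK then slows translation, IRE1 splices Xbp1 mRNA in the cytoplasm, and ATF6 moves to the Golgi and is cut to release a transcription factor. UPF1 is the central helicase of nonsense-mediated decay, which degrades mRNAs whose translation ends too early and whose substrates include transcripts of the stress pathways. In human cells the mRNA of IRE1 has been described as one of them.

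The study used enhanced crosslinking and immunoprecipitation (eCLIP), which sequences RNA fragments that copurify with a protein and sets them against an input library from lysate without the pull-down. There was 1 UPF1 immunoprecipitate and 1 input, both from mouse cortical neural progenitor cells that carried a loxP-flanked Upf2 allele (Upf2fl/fl). The titles of both carry the word MOCK without explanation, and the labels name neither a Cre driver nor an agent that stresses the ER. With 1 library on each side there is no replicate, so no test between conditions exists and every interval below covers counting error only.

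For each cluster the authors deposited a log2 fold of immunoprecipitate over input and a −log10 p. Enriched clusters are those in which both the log2 fold and the −log10 p were 3 or more. The reads behind a cluster were reconstructed from both values, and exact 95% intervals on folds come from those reads. Whether an input count of 1 sometimes replaced a count of 0 was not tested. The reconstruction took a scale of 2.03 immunoprecipitate reads for each input read, inferred from the commonest fold and not from library totals. At 1 input read, a cluster needed at least 24 immunoprecipitate reads to be called, whereas the median enriched cluster of the data set held 63. All 8 markers of neural progenitors had a cluster and 4 an enriched one, among them Sox2, all 11 of whose clusters also lie in another locus. Of neuronal markers 4 of 5 had a cluster and 2 an enriched one, and of oligodendrocyte lineage markers 3 of 4 had an enriched one. All 4 astrocyte markers were enriched, although all 18 clusters of one of them, Aqp4, also lie in another locus. The strand of Aqp4 was not known, so its clusters were counted on either strand and may belong to the other locus. Of 11 markers fixed for microglia, blood, and vessels with fibroblasts, 1 had a cluster, with 5 reads, and none was enriched.

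UPF1 was enriched on 4 of the 10 genes: Calr, Canx, Atf6 and Tbl2. The other 6, Hspa5, Hsp90b1, Pdia3, Xbp1, Eif2ak3 and Ern1, had 38 clusters among them, and the highest log2 fold there was 2.50. Over all 9846 genes with a cluster 33.7% had an enriched one, so 4 of 10 is close to the background. Of the 5811 genes with at least 5 clusters 50.5% did. The median over the 10 genes of the highest fold was 2.14, against 2.56 over all genes with a cluster and 3.44 over those with at least 5. Ern1, Eif2ak3 and Xbp1, with 2, 4 and 4 clusters, lie outside the group with at least 5, which holds all 4 enriched genes. The values of the 10 genes are thus not matched to that group. Without Ern1, Eif2ak3 and Xbp1 both the share and the median would be higher. The contrast lay among the genes.

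Of the 102 clusters, 28 were enriched (27.5%, exact 95% interval 19.1 to 37.2), against 11.6% of all clusters. With touching clusters merged, 10 of 81 stretches held an enriched cluster (12.3%), against 8.94% of all stretches, and with a fold threshold of 4 the share was 17.6%, against 7.23% of all clusters. Calr and Canx held 20 of these 28. Without them, 8 of 73 clusters were enriched (11.0%), near the background. Clusters of one gene are not independent, and many touch each other and may share reads, so the interval is too narrow.

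**Figure D1:**
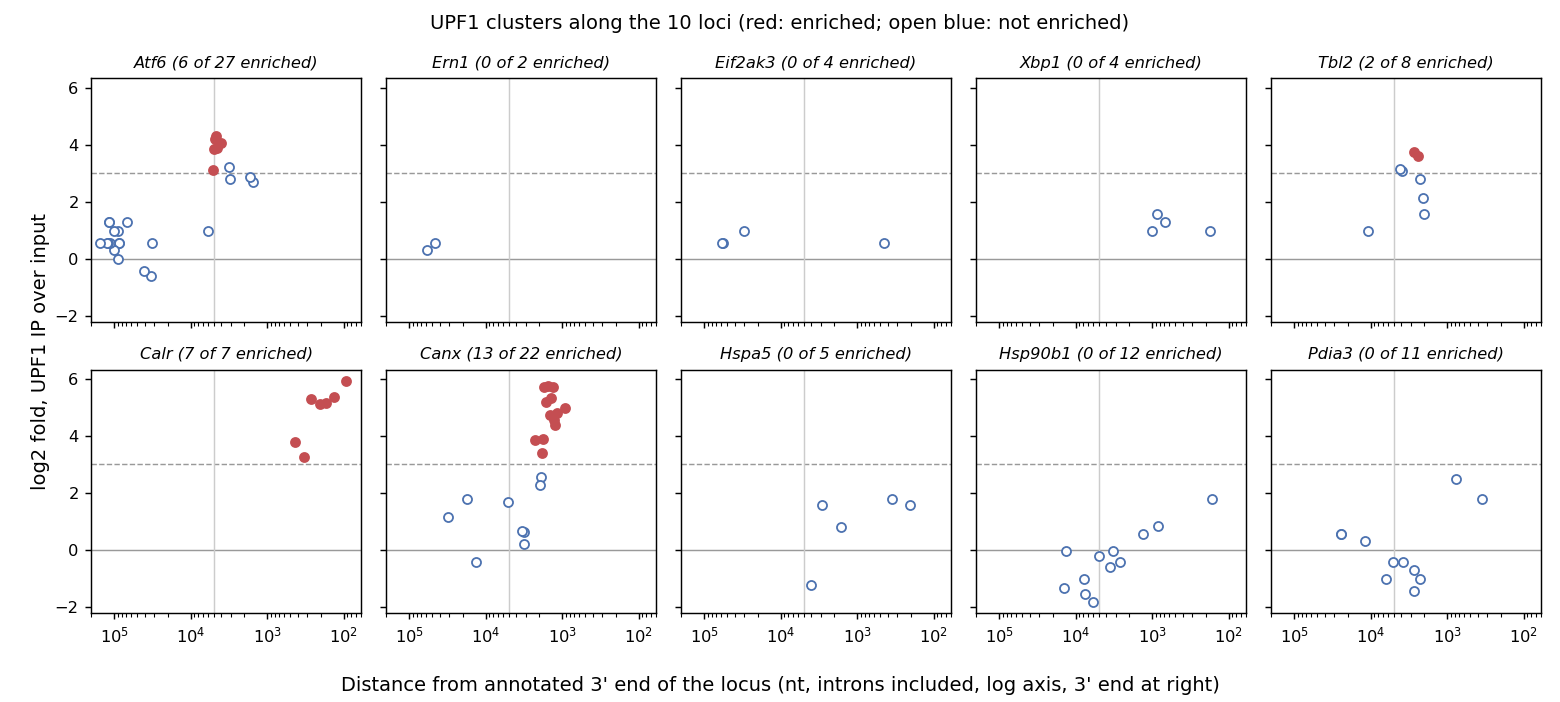
Each panel is one gene and each point one UPF1 cluster, plotted by the distance of its midpoint from the annotated 3′ end of the locus (log axis, nt, introns included, 3′ end at right) and by its log2 fold over input. Red points are enriched, the dashed line marks a log2 fold of 3 and the vertical line 5000 nt; all 7 clusters of Calr and 13 of 22 of Canx are enriched, and none of Hspa5, Hsp90b1 or Pdia3.

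Among the 10 genes, the lectin chaperones Calr and Canx had the highest folds and the deepest clusters. The intervals of their highest folds overlap those of Atf6 and Tbl2. Calr encodes calreticulin, the soluble calcium-binding lectin chaperone of the ER lumen (chromosome 8, 84842088 to 84846931, GRCm38, minus strand). All 7 of its clusters were enriched. From the 3′ end inward their log2 folds were 5.94, 5.38, 5.17, 5.13, 5.30, 3.25 and 3.78. They lay 95 to 437 nt from the outer 3′ end of a locus of 4844 nt, and the remaining 5′ part of the locus held no cluster. The highest, from 84842150 to 84842216, had 374 immunoprecipitate reads against 3 input reads (interval of the log2 fold 4.38 to 8.22) and a deposited −log10 p of 59.3. The deepest had 401 reads against 5. Of the 9846 genes, 3.45% reached a highest fold as high as that of Calr. The first 6 clusters touch and form 1 stretch of 282 nt, so they describe 1 continuous bound region and not 6 separate ones.

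Canx encodes calnexin, the membrane-bound relative of calreticulin that holds newly made glycoproteins in the same folding cycle (chromosome 11, 50293957 to 50325673, minus strand). It had 22 clusters, of which 13 were enriched, with folds of 3.41 to 5.76 among the enriched. The highest lay 1528 nt from the 3′ end, from 50295441 to 50295528, with 221 reads against 2 (interval 3.89 to 8.82). A run of 11 touching clusters, 696 nt long and enriched throughout, lay between 1187 and 1826 nt from the 3′ end. The deepest cluster, 914 nt from the end, had 381 reads against 6 and a log2 fold of 4.96 (interval 3.83 to 6.42).

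The enriched clusters of Canx lay 914 to 2268 nt from the 3′ end, with a gap in the calls. Directly upstream of the run, clusters 1912 and 1973 nt from the end kept 145 and 137 immunoprecipitate reads but met 12 and 14 input reads, and their log2 folds were 2.57 and 2.27. Their −log10 p values of 10.6 and 8.99 passed, so the fold alone kept them from being called. One further enriched cluster lay 2268 nt from the end, with 88 reads against 3 and a fold of 3.85. The 7 clusters farther upstream, from 3135 nt on, ranged from -0.44 to 1.78. The highest folds of Calr and Canx had overlapping intervals, while the bound region of Calr lay closer to the annotated end.

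Among the sensors, Atf6 was the only one with an enriched cluster. Atf6 (chromosome 1, 170704457 to 170868585, minus strand) had 27 clusters across a locus of 164129 nt, and 6 were enriched. These 6 formed 3 separate stretches, 4094 to 5118 nt from the annotated 3′ end, with no other cluster between them. From the 3′ end inward their folds were 4.06, 3.88, 4.30, 4.19, 3.83 and 3.11, from 68, 30, 40, 74, 29 and 35 reads against 1 or 2. The highest, 4.30 from 40 reads against 1, has a wide interval (1.74 to 9.64). The better supported cluster at 4860 nt, with 74 reads against 2, had a fold of 4.19 (2.28 to 7.26) and a −log10 p of 10.2.

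The rest of the Atf6 locus carried few reads. Nearer to the 3′ end, 4 clusters between 1546 and 3174 nt had folds of 2.68, 2.88, 2.78 and 3.22 from 13 to 19 reads against 1, all with a −log10 p of at most 2.16. The cluster at 3.22 missed the call through its p alone, and the other 3 missed both thresholds. Upstream of the enriched group, the 17 clusters from 6023 nt on ranged from -0.61 to 1.30 and held at most 10 reads where these could be reconstructed. The bound part of Atf6 was thus farther from the annotated end than in Calr and Canx and shallower in reads. The strand of Atf6 was taken from its clusters, all 27 of which lie on the minus strand.

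Ern1 and Eif2ak3 were nearly empty. Ern1 (chromosome 11, 106397620 to 106487796, minus strand) had 2 clusters, 45802 and 59356 nt from its 3′ end, with folds of 0.56 (3 reads against 1) and 0.30 (5 against 2). Eif2ak3 (chromosome 6, 70844484 to 70905241, plus strand) had 4, with folds of 0.56, 0.56, 0.98 and 0.56 from 3 or 4 reads against 1. Only 1 of these 6 clusters, 454 nt from the end of Eif2ak3, lay within 5000 nt of a 3′ end. Just beyond the annotated end of Ern1, 299 nt downstream on the same strand, a cluster of 10 reads against 1 had a fold of 2.30 and a −log10 p of 0.94. It overlaps no locus, was not counted, and does not pass the call.

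Xbp1 encodes the transcription factor that becomes active once IRE1 has spliced its mRNA (chromosome 11, 5520641 to 5525993, plus strand). Its 4 clusters lay 174 to 1018 nt from the 3′ end and had folds of 0.98, 1.30, 1.56 and 0.98 from the 3′ end inward, with 4 to 6 reads against 1. The 10 clusters of Ern1, Eif2ak3 and Xbp1 held 3 to 6 immunoprecipitate reads each, fewer than the 24 that a call needed at 1 input read. With 1 input read behind each highest fold, the intervals of single clusters are wide and reach 6.27 in Ern1, 6.60 in Eif2ak3 and 7.08 in Xbp1. Fewer transcripts and less UPF1 per transcript both lower these reads, and the file holds no expression level to tell them apart.

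Tbl2 was enriched at the edge of the call (chromosome 5, 135149429 to 135163873, plus strand). It had 8 clusters and 2 were enriched, 2438 and 2762 nt from the 3′ end, with folds of 3.62 from 25 reads and 3.73 from 27 reads, each against 1. The interval of the higher was 1.13 to 9.09. Farther from the end, clusters at 3971 and 4128 nt had folds of 3.06 and 3.15 from 17 and 18 reads against 1 and missed the p threshold. Nearer to it, 3 clusters had 1.56, 2.15 and 2.78, and 1 cluster at 10840 nt had 0.98. All 8 clusters rest on an input count of 1, and Tbl2 was not called when such clusters were left uncalled, with a fold threshold of 4 or with a −log10 p threshold of 5.

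**Figure D2:**
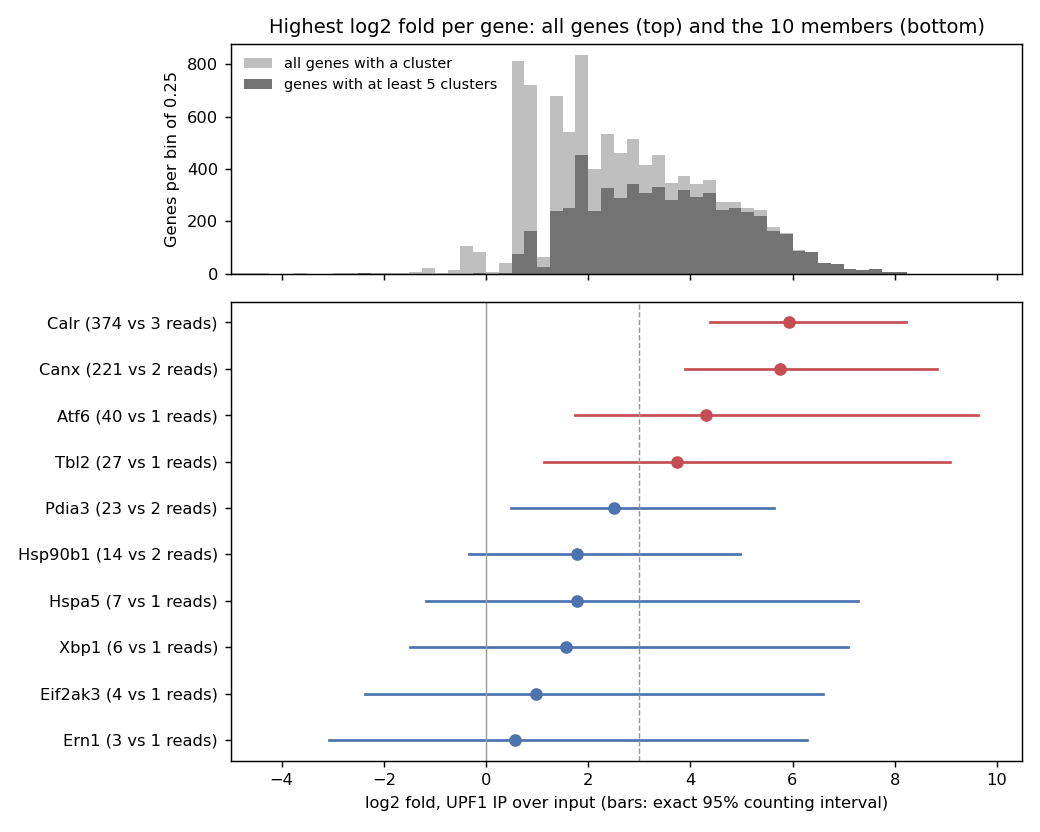
The top panel counts genes by their highest log2 fold in bins of 0.25, light grey for all 9846 genes with a cluster and dark grey for the 5811 with at least 5. In the bottom panel points are the highest fold of each of the 10 genes and bars its exact 95% counting interval, with the reads in brackets; Calr and Canx reach 5.94 and 5.76, and the intervals of most other genes are wide.

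Hspa5, Hsp90b1 and Pdia3 had no enriched cluster, and they differed among themselves. Clusters with a fold at or below 0 made up 9 of 12 in Hsp90b1, 6 of 11 in Pdia3 and 1 of 5 in Hspa5, against 26.8% of all clusters. Their median folds were -0.33, -0.44 and 1.56, against 0.71 over all clusters. Hspa5 encodes BiP, the Hsp70 chaperone of the ER that also restrains the sensors (chromosome 2, 34772090 to 34776529, plus strand). From the 3′ end inward its 5 clusters had folds of 1.56, 1.78, 0.80, 1.56 and -1.25. The deepest, 1632 nt from the end and 215 nt wide, had 39 reads against 11, and the interval of its fold was -0.19 to 1.92. The cluster nearest to the 3′ end, 24 reads against 4, had a fold of 1.56 (0.02 to 3.55). For the deepest cluster of Hspa5 this upper bound lies under the fold threshold. The 3 clusters of Hspa5 nearest to the 3′ end also lie inside the locus of Rabepk, on whose strand no cluster was found there. With clusters in a sole locus only, the highest fold of Hspa5 was 1.56 instead of 1.78.

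Hsp90b1 encodes GRP94, the Hsp90 chaperone of the ER (chromosome 10, 86690841 to 86705444, minus strand). Its 12 clusters were spread from 166 to 14498 nt from the 3′ end and took up 6.35% of the locus, and 9 had a fold at or below 0. The 3 above 0 were those nearest to the 3′ end, at 166, 855 and 1316 nt, with folds of 1.78, 0.85 and 0.56 from 14, 11 and 9 reads against 2, 3 and 3. Upstream of them the folds ran from -1.83 to -0.02. The fold of Hsp90b1 was highest at the 3′ end, as in Calr, but its interval there was -0.34 to 4.96.

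Pdia3 encodes ERp57, the disulfide isomerase that works together with calnexin and calreticulin (chromosome 2, 121413902 to 121438687, plus strand). It had 11 clusters and 6 had a fold below 0. The highest, 765 nt from the 3′ end, had 23 reads against 2, a fold of 2.50 (0.48 to 5.63) and a −log10 p of 2.27. The cluster nearest to the end had 1.78 from 7 reads against 1. Between 2312 and 6348 nt the folds ran from -1.44 to -0.44, and the 3 clusters beyond were at 0.30, 0.56 and 0.56. Of the 9846 genes, 50.4% reached a highest fold as high as that of Pdia3.

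**Figure D3:**
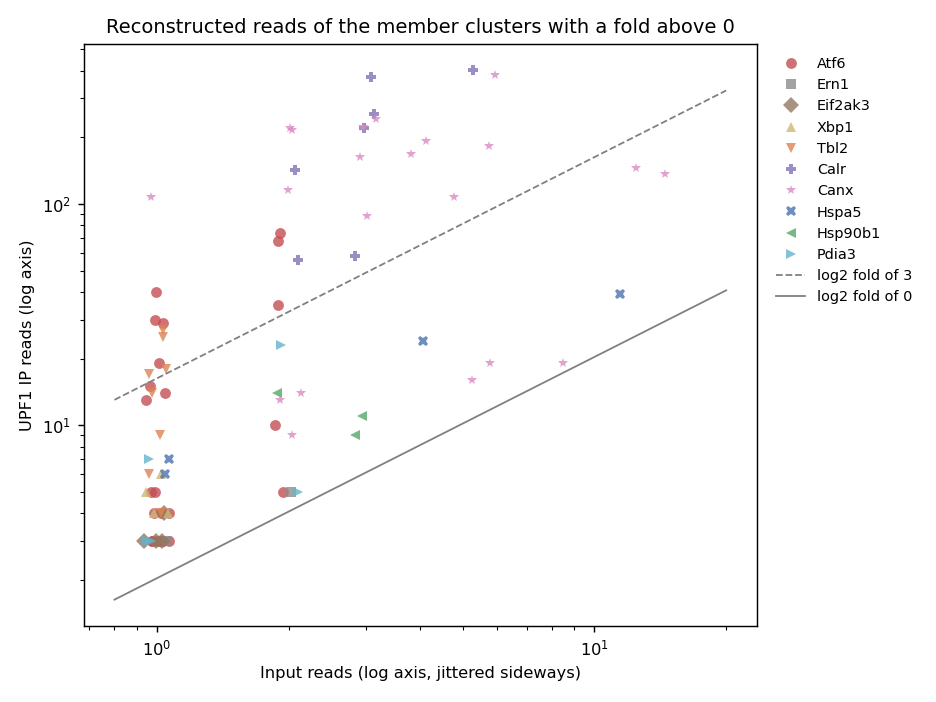
Each point is one cluster with a fold above 0, by its reconstructed input reads (x, log axis, moved slightly sideways to separate points) and immunoprecipitate reads (y, log axis), with a symbol for each gene. The solid line is a log2 fold of 0 and the dashed line a fold of 3; clusters of Calr and Canx reach 401 and 381 reads, while those of Ern1, Eif2ak3 and Xbp1 lie at 6 reads or fewer.

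By the highest fold the order of the genes was Calr, Canx, Atf6, Tbl2 and Pdia3, then Hspa5 and Hsp90b1 at the same value, then Xbp1, Eif2ak3 and Ern1, and the intervals of all neighbours in this order overlap. The highest cluster of Hspa5, with 7 reads against 1, had an interval of -1.18 to 7.28, which overlaps those of Calr and Canx. Between the deepest clusters, the interval of Hspa5 (-0.19 to 1.92) lay below those of Calr (4.07 to 6.93) and Canx (3.83 to 6.42). For 5 genes every cluster had a fold above 0, so that reads could be summed over all of them. The summed log2 fold was 5.14 for Calr (interval 4.52 to 5.84) and 2.88 for Tbl2 (1.86 to 4.13). It was 1.22 for Xbp1 (-0.37 to 3.24), 0.68 for Eif2ak3 (-1.02 to 2.75) and 0.39 for Ern1 (-1.67 to 2.94). Touching clusters of Calr may count a read more than once, which narrows its interval.

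Position along the locus followed the data set. Of the 28 enriched clusters 26 were at most 5000 nt from the outer 3′ end (92.9%, exact interval 76.5 to 99.1), against 91.4% of all enriched clusters on the strand of a locus. The other 2, in Atf6, lay 5048 and 5118 nt from it. Of the 62 clusters within 5000 nt, 26 were enriched (41.9%, interval 29.5 to 55.2), and the background there was 33.9%. Farther away, 2 of 40 were, with a background of 1.45%. Hspa5 and Xbp1 had all 5 and all 4 of their clusters within 5000 nt and none enriched, but their loci span only 4440 and 5353 nt. The locus of Calr, with all 7 clusters enriched, spans 4844 nt. In loci this short nearly every cluster lies within 5000 nt, so whether position separates the genes was not tested. Distances include introns, and whether a cluster lay in an exon, intron or untranslated region was not analysed here.

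Both enriched and non-enriched chaperone genes carry a common promoter element. The ER stress response element (ERSE), through which ATF6 and XBP1 induce chaperone genes, is CCAAT, 9 bases of any kind and CCACG. It was searched on both strands of the RefSeq windows from 250 bases before to 50 after the gene start (GRCm38.p6), which 9 of the 10 genes have, and was found in 4 of them: Calr, Canx, Hspa5 and Hsp90b1. Of 27025 genes with a window, 0.137% hold it. The sites are shown because they group chaperones that differ in UPF1 enrichment. Each is written 5′ to 3′ on the strand that reads CCAAT first, with 5 flanking bases on each side and the fixed letters in capitals.
Calr, 162 nt before the start, opposite strand: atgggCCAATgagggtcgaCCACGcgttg
Canx, 145 nt before the start, gene strand: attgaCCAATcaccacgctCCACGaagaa
Hspa5, 65 nt before the start, gene strand: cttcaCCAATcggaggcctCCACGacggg
Hsp90b1, 212 nt before the start, gene strand: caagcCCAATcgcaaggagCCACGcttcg
Hsp90b1, 107 nt before the start, opposite strand: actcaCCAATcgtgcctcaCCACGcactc
Of the 4 genes with the element, Calr and Canx had enriched UPF1 clusters and Hspa5 and Hsp90b1 had none. A match is a description of these letters, and no UPF1 cluster lay in the windows of these 4 genes. The shorter element ERSE-II, which is ATTGG, 1 base of any kind and CCACG, was found in no window of the 9 genes and in 0.0444% of all.

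Around these 10 genes, 60 further genes of the pathway were examined by role. Of these, 51 had a cluster and 24 an enriched one (47.1%, exact interval 32.9 to 61.5), beside the 33.7% of all genes with a cluster. The 50.5% of genes with at least 5 clusters is not a matched share, since the 51 include many genes with fewer. Among those with fewer than 5, only Atf4, Syvn1 and Vcp were enriched, so the share among the rest is higher than 47.1%. The median of the highest folds of the 51 genes was 3.37. Enriched genes occurred in each of the 8 roles. The roles are small, and the exact intervals of their shares are wide and all overlap. Only that of ER-associated degradation (34.9 to 90.1) leaves out the 33.7% of all genes with a cluster. Differences between roles were not tested.

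Downstream of PERK, 2 of 8 genes with a cluster were enriched (25%, exact interval 3.19 to 65.1), beside 33.7% of all genes with a cluster. Ppp1r15b, the constitutive subunit that directs a phosphatase to eIF2α, had 7 of 8 clusters enriched and a highest fold of 6.39 (interval 3.90 to 11.71). Atf4, the transcription factor translated when eIF2α is phosphorylated, reached 5.20. Eif2s1, which encodes eIF2α itself, had 8 clusters, all below the call, and reached 3.37 from 21 reads against 1. Among the other genes of sensor signalling, 1 of 6 was enriched: Mbtps2, the Golgi protease that makes the second cut in ATF6, reached 4.53 (3.15 to 6.42), while Mbtps1, which makes the first, had 9 clusters and reached 3.06 without passing.

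ER-associated degradation, which exports misfolded proteins to the proteasome, had 8 of 12 genes enriched (66.7%, exact interval 34.9 to 90.1). Over all genes with a cluster the share was 33.7%, and over those with at least 5 clusters 50.5%. Derl1, a channel component, reached 6.30 (3.80 to 11.61) with 5 of 6 clusters enriched, and Os9, a lectin that selects glycoproteins, reached 5.91 (4.04 to 8.96). Erlec1, a related lectin, had 12 clusters, none of them called, and reached 2.44. In the translocon group 4 of 5 genes were enriched (80%, exact interval 28.4 to 99.5). All 11 clusters of Sec61a1, the channel subunit, were enriched, with a highest fold of 6.70 (4.21 to 12.01), Ssr1 reached 4.76, and the single cluster of Sec61b had 0.56.

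The folding enzymes also included both enriched and non-enriched genes. Of 5 disulfide isomerases and oxidases with a cluster 2 were enriched: P4hb, the classical protein disulfide isomerase, had 4 of 7 clusters enriched and reached 6.96 (4.47 to 12.27), and Txndc5 reached 5.37, whereas Pdia4 had 7 clusters and a highest fold of 1.15. In the glycoprotein folding cycle, in which calnexin and calreticulin act, 3 of 5 were enriched. Ganab, the catalytic subunit of glucosidase II, reached 5.80 (3.29 to 11.11) and Uggt1, the glucosyltransferase that returns misfolded proteins to the cycle, 4.73, while its paralog Uggt2 had 13 clusters and reached 2.30. Among Hsp40 and Hsp70 partners 3 of 7 were enriched, with Hyou1, a large Hsp70 relative, at 4.68 and Dnajc10, an ER disulfide reductase, at 4.37, while Sil1, the exchange factor of BiP, had 9 clusters at a highest fold of 0.56. Of the prolyl isomerases and calcium binders 1 of 3 was enriched: Calu, calumenin, had 12 of 13 clusters enriched and reached 6.52 (4.03 to 11.83), while Ppib and Fkbp2, with 3 clusters each, reached 1.56 and 2.68.

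**Figure D4:**
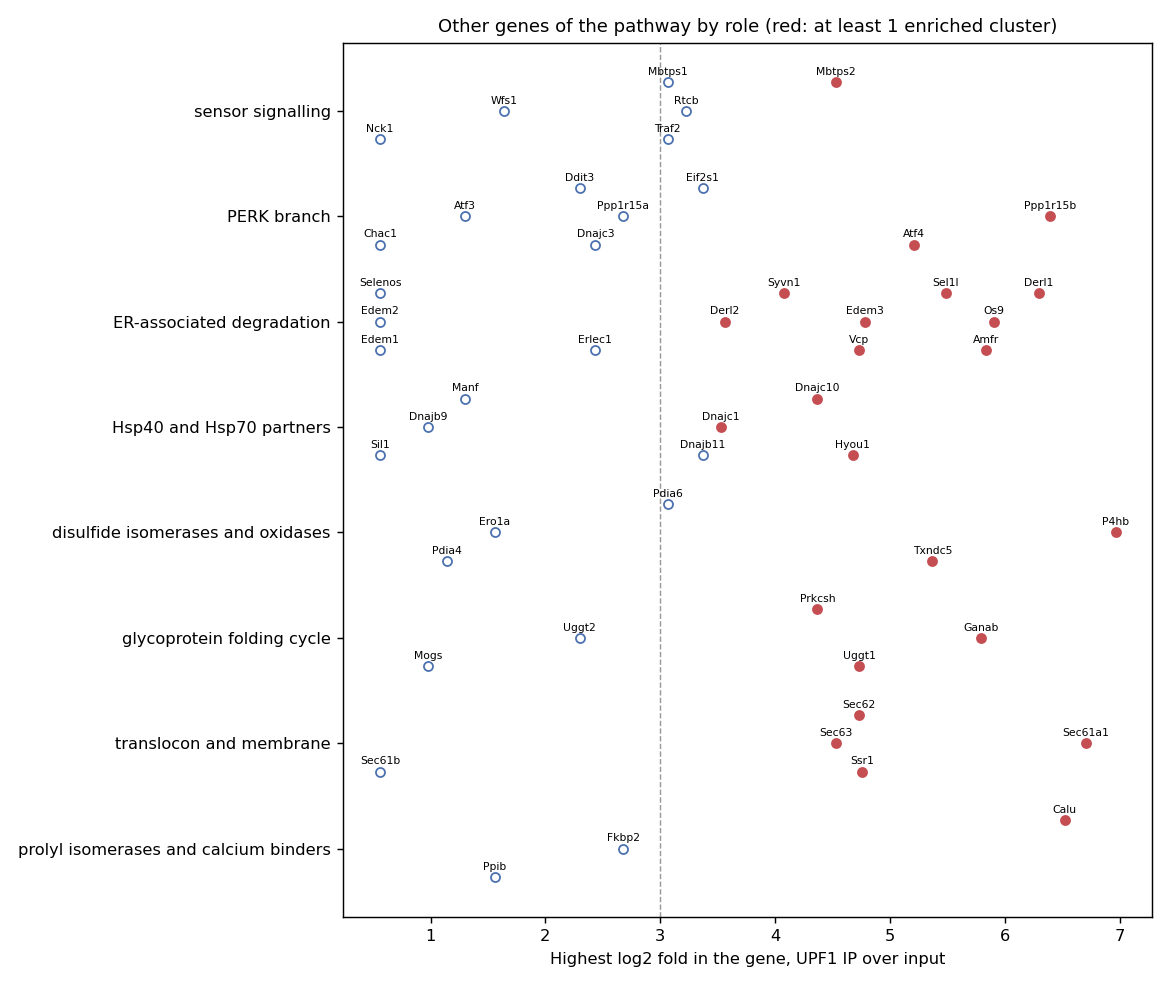
Each point is one of the 51 further genes with a cluster, by role (rows; offsets within a row only separate the labels) and highest log2 fold over input (x axis), red where at least 1 cluster is enriched and open blue where none is; the dashed line marks a fold of 3. The 24 enriched genes are spread over all 8 roles, and P4hb at 6.96 and Sec61a1 at 6.70 reach the highest folds.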

How the data were processed

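The authors deposited 1 list of stranded clusters for the UPF1 immunoprecipitate, and the input enters through its values. Per the submitters' processing notes, STAR, cutadapt and UMI-tools were used with build mm10; the program that called the clusters, how the fold was computed and any filter were not given in the sources used here. That list has no header. From the values, one deposited column is the authors' log2 fold over input and the other the authors' −log10 p, capped at 400 and 0 wherever the fold is at or below 0. Library totals were not used here.

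Reads were reconstructed by taking the commonest fold as 3 reads against 1, which sets a log2 scale of -1.02 between the libraries. A pair of counts was accepted when its p (exact binomial below 5 reads on either side, otherwise chi-square with continuity correction) lay within 0.05 or 1% of the deposited −log10 p. This gave reads for 90027 of 90350 clusters with a fold above 0 (99.6%), and for all 82 such clusters of the 10 genes. On 1572 simulated clusters both counts were recovered in 99.7%. These were made with the same scale and p formulas, so they check the search for counts and cannot check those assumptions. Intervals are exact Clopper-Pearson 95% intervals and cover counting error only.

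Loci are outer coordinates from RefSeq GRCm38.p6, the assembly that mm10 names. Strands came from the RefSeq promoter table or, without an entry, from at least 80% of the clusters in no other locus (2 or more). The 1028 loci with clusters but no strand were left out of the counts over all genes. Among the markers and further genes, Aqp4, Hes1, Pdgfrb and Manf had no strand, and their clusters were counted on either strand. A cluster overlapping several loci on its strand counts in each. The 10 genes, the further list and the naming rule (all 10 genes; per role the 2 highest enriched genes and the gene with the most clusters and none enriched, both where 2 tied) were chosen with earlier results of these data known. Alternatives were other thresholds, other locus rules and summed reads. Python 3.11.15, pandas 2.3.3 and scipy 1.17.1 were used.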

Additional observations from a re-analysis of the deposited data

How the results depend on the processing

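The count of 4 enriched genes stayed at 4 with a log2 fold threshold of 2, with clusters in a sole locus only, and, as added after seeing the data, with no p threshold. It was 3, without Tbl2, with a fold threshold of 4, a −log10 p threshold of 5 or input counts of 1 left uncalled, and the enriched clusters of Atf6 then numbered 3 instead of 6. The share of enriched clusters, 27.5%, was 17.6% with a fold threshold of 4, and 12.3% (10 of 81 stretches) when touching clusters were merged, also added after seeing the data. The share of enriched clusters near the 3′ end was 67.9% within 2000 nt, and 100% within 10000 nt or, at 5000 nt, with a fold threshold of 4. The matching share over all enriched clusters, 91.4%, was computed only for 5000 nt and the main thresholds. The median of the highest folds, 2.14, was 1.37 from summed reads, which leave out clusters at or below 0 in Atf6, Canx, Hspa5, Hsp90b1 and Pdia3, and 5.03 over clusters with a −log10 p of at least 3, which leaves the 4 enriched genes only. The highest fold of Canx, 5.76, was 3.85 from summed reads. The 60 further genes had 19 to 24 enriched under the alternatives. Shares over all genes were not computed under the alternatives, so these gene counts have no background there. No paired analysis was possible because there is 1 library on each side. The highest folds of Atf6, Tbl2, Hspa5, Xbp1, Eif2ak3 and Ern1 rest on 1 input read each, which sets their wide intervals. Folds at or below 0 carry no reads or p.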
